A study of Mus musculus with 6 samples.

Results

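Transcripts of 9 genes of bone morphogenetic protein (BMP) and activin signalling were followed in mammosphere cultures of MMTV-Neu mice. The genes were chosen by name from 19893 gene symbols that have a row in all 6 count tables: the ligand genes Bmp2, Bmp4, Bmp7, Inhba and Inhbb, and the antagonist genes Grem1, Fst, Fstl1 and Bambi. Each of the 9 symbols had 1 transcript row, which was present in all 6 tables. Every mouse was on the FvB background and carried the MMTV-HER2/Neu transgene, an oncogene (Neu, or ErbB2) under a viral promoter that is active in mammary epithelium. For the early lesion (EL) group, 3 libraries were made from glands at 14 to 18 weeks of age, when no tumour could be felt. For the primary tumour (PT) group, 3 libraries were made from tumours at over 20 weeks. Digested cells of both groups were kept in mammosphere medium on plates of very low adhesion, for 7 days, and polyadenylated RNA was sequenced. The labels call the cells of both groups breast cancer cells and name no selection beyond growth as spheres. Nothing in the labels ties each library to its own mouse, so p-values cover the spread between libraries only, and that spread may be technical. In bulk samples fewer cells of a type and less RNA per cell cannot be told apart.

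BMPs and activins are secreted dimers of the TGF-beta superfamily that bring type I and type II receptor kinases together. BMP receptors pass the signal to Smad1, Smad5 and Smad9, and activin receptors to Smad2 and Smad3. Activins are built from the beta subunits that Inhba and Inhbb encode. Secreted antagonists hold the ligands away from their receptors: gremlin, the product of Grem1, binds BMPs, and follistatin, the product of Fst, binds activins. In the mammary gland these ligands act between the epithelium and the surrounding mesenchyme, and mice without the beta B subunit have poorly developed ducts and alveoli.

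Total counts per library lay between 69759793 and 85126630, the lowest from EL replicate 1, whose table breaks off after 27664 of 33068 transcript rows. The edgeR quasi-likelihood test called 11173 of 13844 tested genes at a Benjamini-Hochberg adjusted p under 0.05, 5527 higher and 5646 lower in PT. Marker genes of several cell types differed between the EL and PT cultures. Fibroblast markers, among them the collagen genes Col3a1 and Col1a1, fell in 14 of 14 cases, from a summed level of 72368 to 77119 CPM (library-scaled counts) in EL to 737 to 879 CPM in PT. All 12 endothelial markers (246 to 266 against 8.39 to 9.81 CPM) and all 7 pericyte markers (1426 to 1643 against 138 to 147 CPM) were lower as well. Among them the pericyte marker Notch3 (named after its values were seen) fell least, from a mean of 109 to 96.4 CPM. Of 10 luminal epithelial markers, 9 were higher and 1, Krt19 (named after its values were seen), was lower, with a summed level of 2482 to 2552 CPM in EL and 8756 to 9080.5 in PT. The tissue given for the EL samples reads as mammary and lung together. Of 10 lung epithelial markers, Sftpa1, Scgb1a1, Scgb3a2, Nkx2-1 and Cldn18 had 0 counts in every library, and Sftpb had 1 count in EL and 1 in PT. Mean levels in EL and PT were 8.07 and 72.1 CPM for Sftpd and 7.24 and 53.1 CPM for Foxj1, while Ager, with 150 and 225 counts, was not called and Sftpc had 9 and 32 counts.

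Of the 9 genes, 8 were lower in PT spheres and Inhbb was not called in either direction. Among all tested genes 80.7% were called and 40.8% were called lower. The 4 antagonist genes had a median log2 fold change (PT minus EL) of -5.97 and the 5 ligand genes of -2.56, while the median of all tested genes was 0.00. Fstl1, Grem1 and Fst fell between 57.7-fold and 97.9-fold, and the 4 ligand genes that fell did so between 4.47-fold and 11.3-fold. EL and PT libraries were fully apart in CPM for 8 of the 9 genes, against 82.7% of all tested genes. Against a 2-fold minimum in edgeR the same test called 8 members lower and 0 higher, where 17.3% and 7.3% of all tested genes were called. In the ordinary test 39.9% of all tested genes were called higher and 0 of the 9.

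**Figure D1:**
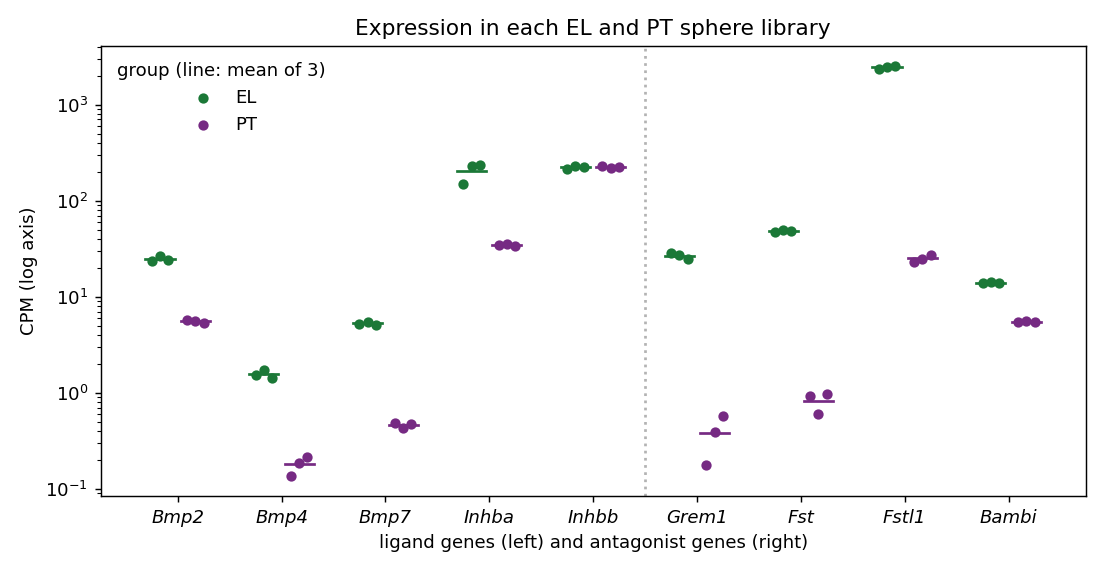
CPM on a log axis for each of the 9 genes in the 3 EL and the 3 PT libraries, with 1 point per library and a line at each group mean; ligand genes stand left of the dotted line and antagonist genes right of it. The groups are apart for every gene except Inhbb, and the widest gaps are those of Fstl1, Grem1 and Fst.

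The activin subunit genes parted. Inhba, on chromosome 13 from 16004256 to 16031609 (mm10, as are all gene positions here), encodes the beta A subunit of activin A and was at 148, 229 and 234 CPM in EL replicates 1 to 3 and at 34.4, 35.5 and 34.1 CPM in PT. All EL libraries lay above all PT libraries, but EL replicate 1 stood well below the other EL libraries. The mean fell from 204 ± 48.5 to 34.7 ± 0.749 CPM (SD, n = 3 each; log2 fold change -2.56, SE 0.14, edgeR adjusted p = 1.37e-09). Without EL replicate 1 the log2 fold change was -2.74. The variation of Inhba within EL, with a coefficient of variation of 23.8%, was wider than that of most genes: 4.02% of 13215 genes with a mean count of at least 20 varied more, and their median was 4.74%.

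Inhbb, on chromosome 1 from 119415463 to 119422248, encodes the beta B subunit and was at 214, 232 and 223 CPM in EL and at 227, 219 and 223 CPM in PT. The groups overlapped, and the means were 223 ± 8.78 and 223 ± 4.02 CPM (SD, n = 3 each). The log2 fold change was 0.00 with an SE of 0.03, and its 95% interval (4 residual degrees of freedom) ran from -0.09 to 0.10, so that a change beyond these bounds was outside the interval under this scaling (adjusted p = 0.951 by edgeR). With library totals in place of the TMM factors, which shifted all genes by a median of 0.25, Inhbb passed at a log2 fold change of 0.25. Beside it, the luminal markers had a median log2 fold change of 1.80.

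The ratio of Inhba to Inhbb counts within a library does not depend on scaling between libraries. Its log2 value was -0.53, -0.01 and 0.07 in the EL libraries and -2.72, -2.63 and -2.71 in the PT libraries. All 3 PT libraries were below all 3 EL libraries, and the ratio fell by 2.53 on the log2 scale, to 0.173 of its EL value. The exact two-sided permutation test gave p = 0.1, the smallest that 3 libraries against 3 allow, and 0.1 after adjustment over 6 pairs, so that this exact test cannot pass 0.05 with 3 libraries a group. Which subunit was the more abundant per kilobase in EL depends on the transcript length used. With the 1529 bases of the GENCODE transcript matched to the counted Inhba transcript its level was 133 CPM per kilobase against 52.4 for Inhbb, and with the 6390 bases of the longest annotated Inhba transcript it was 31.9. In PT, Inhba was below Inhbb with either length (22.7 or 5.43 against 52.5 CPM per kilobase).

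The upstream sequences of this pair are shown because the genes encode alternative subunits of the same hormone family and their levels parted. The 250 bases before the RefSeq start lie at chr13:16011601-16011850 on the plus strand for Inhba and at chr1:119422249-119422498 on the minus strand for Inhbb (GRCm38.p6, the C57BL/6J reference rather than FvB). The Inhba window lies inside the gene span given above, since the promoter table uses a later start. The bases that follow the Inhba window were not found in the GENCODE transcript matched to the counted one. Whether this window precedes the start of the counted transcript is therefore not known. They are given 5′ to 3′ in the direction of the gene, in lower case, with capitals reserved for 3 Smad motifs: CAGAC and GGCGCC, and the palindrome GTCTAGAC, each searched on both strands.
Inhba: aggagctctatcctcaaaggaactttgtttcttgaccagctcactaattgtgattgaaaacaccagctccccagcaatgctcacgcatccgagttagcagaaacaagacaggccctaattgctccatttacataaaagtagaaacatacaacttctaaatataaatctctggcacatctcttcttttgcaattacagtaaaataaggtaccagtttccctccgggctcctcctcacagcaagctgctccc
Inhbb: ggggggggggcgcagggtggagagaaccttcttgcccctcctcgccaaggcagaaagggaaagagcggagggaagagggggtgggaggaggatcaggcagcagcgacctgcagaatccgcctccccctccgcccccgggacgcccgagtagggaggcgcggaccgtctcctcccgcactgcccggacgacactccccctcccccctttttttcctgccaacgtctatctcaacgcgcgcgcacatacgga
Neither window held a match to these letters, so that both are printed without capitals. The share of all 32851 RefSeq promoter windows of that length with a match was 42.2% for CAGAC, 9.59% for GGCGCC and 0.167% for GTCTAGAC. The windows differed in composition, with 43.2% G and C for Inhba and 68% for Inhbb, against a median of 52.4% over all windows. Promoter windows were found for 5 of the 9 genes, the others being Bmp4, Grem1 and Fstl1.

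The 3 BMP ligand genes fell. Bmp2, which lies on chromosome 2 from 133552159 to 133562896 and encodes a BMP known from bone and from epithelial differentiation, was at 23.8, 26.4 and 24.3 CPM in EL and at 5.71, 5.58 and 5.34 CPM in PT. The groups did not overlap, and the fall was 4.47-fold (log2 fold change -2.16, SE 0.07, with an edgeR adjusted p of 4.08e-12). Bmp7, on chromosome 2 from 172868012 to 172940321, encodes a BMP of kidney and skeletal development and was at 5.23, 5.51 and 5.03 CPM in EL and at 0.488, 0.431 and 0.467 CPM in PT. It rested on 634 counts in EL and 74 in PT, and fell 11.3-fold (log2 fold change -3.50, SE 0.15, with an edgeR adjusted p of 1.17e-10). It had the largest fold among the ligand genes.

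Bmp4, on chromosome 14 from 46383525 to 46390669, encodes a BMP that mesenchyme sends to the epithelium during budding of the mammary gland. It was the least abundant of the 9 genes in EL, at 1.52, 1.71 and 1.42 CPM, and was at 0.137, 0.187 and 0.216 CPM in PT. The groups did not overlap, although the counts were low, 62, 68 and 57 in EL and 7, 10 and 12 in PT. The log2 fold change was -3.08 with an SE of 0.25, the widest error among the 9 genes (adjusted p = 9.83e-08 by edgeR). The 95% interval of Bmp4 (-3.77 to -2.39) overlapped those of Bmp7 (-3.92 to -3.09) and Inhba (-2.94 to -2.18), so that its order relative to them was not resolved.

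Among the antagonists, Fstl1 was the most abundant of the 9 genes in EL. It lies on chromosome 16 from 37777055 to 37836516 and encodes follistatin-like 1, a secreted glycoprotein of mesenchymal cells related in sequence to follistatin. It was at 2370.4, 2480.1 and 2498 CPM in EL and at 23.1, 24.6 and 27.3 CPM in PT. These groups lay far apart, and Fstl1 fell 97.9-fold (log2 fold change -6.61, SE 0.06, with an edgeR adjusted p of 1.20e-16). Only 1.51% of tested genes had a lower log2 fold change. Per kilobase of its 3789-base transcript its mean level was 646 CPM in EL and 6.60 in PT.

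Fst, the follistatin gene on chromosome 13 from 114452262 to 114458989, was at 46.8, 49.4 and 47.8 CPM in EL and at 0.917, 0.599 and 0.970 CPM in PT. The EL libraries were close to each other, and all PT libraries were below 1 CPM. Fst fell 57.7-fold (log2 fold change -5.85, SE 0.09, with an edgeR adjusted p of 6.26e-15), from 5787 counts over the EL libraries to 133 over the PT libraries. The subunit genes were set against this antagonist within each library. The log2 ratio of Inhba to Fst counts was 1.66, 2.21 and 2.29 in EL and 5.22, 5.87 and 5.12 in PT, and that of Inhbb to Fst was 2.19, 2.23 and 2.22 against 7.94, 8.49 and 7.83. The PT values were all above the EL values, with rises of 3.35 and 5.87 on the log2 scale, or 10.2-fold and 58.6-fold (exact two-sided permutation p = 0.1 for each, the smallest possible, and 0.1 after adjustment over 6 pairs).

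Grem1, on chromosome 2 from 113748675 to 113758648, was at 28.2, 26.8 and 24.96 CPM in EL and at 0.176, 0.393 and 0.575 CPM in PT. The groups lay far apart, but the PT libraries differed among themselves, with 9, 21 and 32 counts. Grem1 fell 68.5-fold (log2 fold change -6.10, SE 0.16, with an edgeR adjusted p of 7.45e-13). The log2 ratio of Bmp2 to Grem1 counts rose from -0.10 ± 0.12 in EL to 3.98 ± 0.89 in PT (SD, n = 3 each; exact two-sided permutation p = 0.1). Bmp4 to Grem1 rose from -4.09 ± 0.12 to -0.92 ± 0.53 and Bmp7 to Grem1 from -2.34 ± 0.08 to 0.42 ± 0.90, with the same exact p of 0.1 for each. In all 3 pairs every PT library was above every EL library, and PT replicate 1, with the fewest Grem1 counts, had the highest ratio. Only the change of these ratios is read here, since the transcripts differ in length. Every ligand to antagonist ratio here has Fst or Grem1 as its denominator, and ratios to other antagonist genes were not computed. Of 13 tested other antagonist genes 10 were lower and 3 higher. Fstl3 fell by less than Inhba (log2 fold change -1.38 against -2.56), and Nog rose (1.545), both named after their values were seen. Of the 9 genes, the antagonist gene Bambi fell by less (-1.34) than every ligand gene that fell (-2.16 to -3.50).

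The 250 bases before the Grem1 start, chr2:113758649-113758898 on the minus strand (GRCm38.p6), are shown because Grem1 was the 1 gene of the 5 with a promoter window that held any of the Smad motifs named above, which stand in capitals.
Grem1: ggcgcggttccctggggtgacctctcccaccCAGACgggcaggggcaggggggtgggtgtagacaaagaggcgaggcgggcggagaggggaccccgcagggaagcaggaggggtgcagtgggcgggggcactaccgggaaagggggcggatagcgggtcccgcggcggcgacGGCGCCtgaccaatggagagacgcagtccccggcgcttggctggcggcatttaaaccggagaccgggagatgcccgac
The window held 1 match to CAGAC and 1 to GGCGCC. Such matches occur in 42.2% and 9.59% of all promoter windows and are a description of the letters, not of binding. As for Inhba, the bases that follow the Grem1 window were not found in the GENCODE transcript matched to the counted one.

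**Figure D2:**
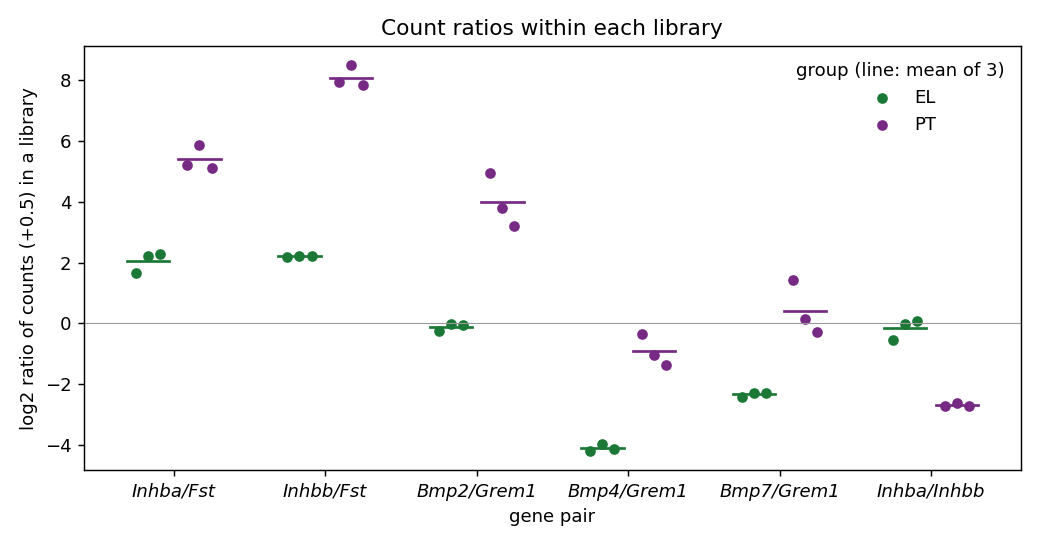
Log2 ratio of the counts of 2 genes (each plus 0.5) within each of the 3 EL and the 3 PT libraries, with 1 point per library and a line at each group mean. The 5 ratios of a ligand gene to Fst or Grem1 are higher in every PT library than in any EL library, and Inhba to Inhbb is lower in every PT library. Ratios to other antagonist genes were not computed.

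Bambi, on chromosome 18 from 3507011 to 3516404, encodes a membrane pseudoreceptor that resembles a type I receptor without a kinase and dampens BMP, activin and TGF-beta signals. It was at 13.8, 14.1 and 13.8 CPM in EL and at 5.44, 5.62 and 5.39 CPM in PT. It had the tightest replicates in EL, and the groups did not overlap. The fall was 2.53-fold (log2 fold change -1.34, SE 0.07, with an edgeR adjusted p of 8.10e-10), the smallest among the 8 genes that fell. Its interval (-1.53 to -1.15) did not reach those of the secreted antagonists, of which that of Fst was the nearest (-6.11 to -5.59).

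The changes of the 9 genes were set beside the cell type markers given above. The fibroblast markers had log2 fold changes from -7.50 to -5.14, a range that held Fstl1, Grem1 and Fst and none of the other 6 genes. The endothelial markers (-10.29 to -0.45, median -5.67) spanned all 8 genes that fell. Their upper end was Vwf alone: the next, Esam, was at -4.80, and up to there the range held only Fstl1, Grem1 and Fst. The pericyte markers (-6.20 to -0.18, median -3.95) spanned 7 of the genes that fell, all but Fstl1. Their upper end was Notch3, whose fall was smaller than the median shift of 0.25 with library totals. The basal markers spanned all 9 genes. The luminal markers did so only through Krt19 (-6.71), since those that rose lay at 1.15 to 3.08. Vwf, Esam, Notch3 and Krt19 were named after their values were seen. The 4 ligand genes that fell and Bambi lay between the fibroblast range and the median of all genes, and Inhbb lay apart from both the fibroblast markers and the median of the luminal markers. Basal epithelial markers went both ways (3 higher and 5 lower of 8), and 8 of 9 macrophage markers with a row were higher in PT, with a summed level of 520 to 687 CPM in EL and 956 to 1060.3 in PT. Of 6 adipocyte markers Fabp4 and Pparg were lower. The other 4 were near 0 in both groups: Lep had 0 counts in every library, and over the EL and the PT libraries Plin1 had 2 and 0 counts, Adipoq 10 and 0, and Cidec 7 and 8. Of 8 lymphocyte markers Ptprc was higher and Cd4 lower, with summed levels of 9.41 to 13.4 CPM in EL and 11.5 to 14.6 in PT. The part of these cells in the falls was not tested.

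**Figure D3:**
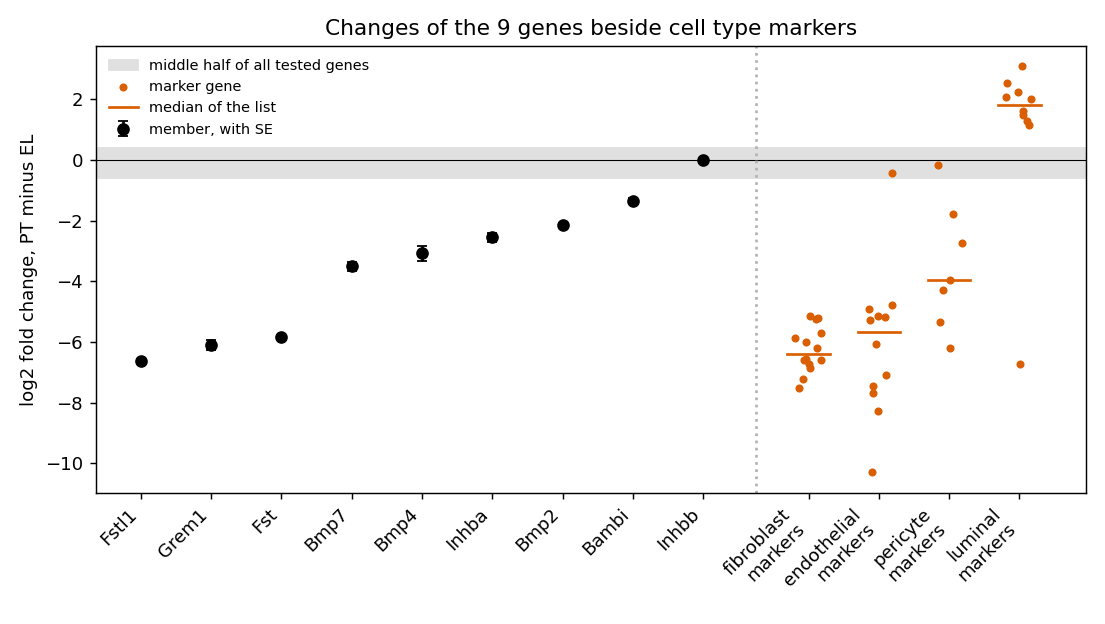
Log2 fold change (PT minus EL) of the 9 genes with its SE, left of the dotted line, beside the marker genes of 4 cell types with the median of each list. The grey band spans the quartiles of all tested genes (-0.60 to 0.38); Fstl1, Grem1 and Fst lie within the range of the fibroblast markers (-7.50 to -5.14) and Inhbb lies at 0.00.

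For each of the 9 genes the tested gene with the most similar pattern over the 6 libraries was found, by the root mean square difference of log2 CPM after centring each gene on its own mean, among 13206 genes with a mean count of at least 20. For Fstl1 it was Nid1, which encodes the basement membrane protein nidogen, at a difference of 0.0464. For Fst it was the fibroblast marker Dpt, at 0.0887, and for Grem1 it was Eva1a, at 0.130. For Inhba it was Ereg, which encodes the growth factor epiregulin, at 0.102, and for Inhbb it was Utp11l, at 0.0140. The nearest genes of Bmp2, Bmp4, Bmp7 and Bambi were Mdfic (0.0489), Htr2b (0.0777), Chst2 (0.0532) and Rap2a (0.0241).

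The rest of the pathway was read from 81 further symbols in 5 lists, of which 79 had a row in all tables and 64 were tested. The test called 59 of them (92.2%), 14 higher and 45 lower in PT, where 39.9% and 40.8% of all tested genes were called in these directions. Their median log2 fold change was -0.86, against 0.00 for all tested genes. With library totals the split was 21 higher and 38 lower, and 6 called genes turned sign (Bmpr1a, Smad2, Smad4, Smad5, Smurf1 and Skil). The lists did not move alike, with medians from -3.10 for the other ligands to -0.13 for the Smad and Smurf genes. The fibroblast and endothelial markers had medians of -6.38 and -5.67, and the part of those cells in the pathway changes was not tested.

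Among 15 tested other ligand genes 12 were lower and 2 higher (median -3.10). Bmp1, which despite its name encodes a procollagen protease and not a BMP ligand, fell from 1021 ± 52.6 to 134 ± 3.36 CPM (SD, n = 3 each; log2 fold change -2.93, SE 0.04). Gdf10 had a log2 fold change of -6.94, Gdf6 of -5.90 and Gdf11, an activin-like ligand, of -3.47. Inha, the inhibin alpha subunit gene, was chosen after its values were seen and had a log2 fold change of -4.47. The 2 that rose, also named after their values were seen, were Gdf5, from 5.16 ± 0.301 to 11.4 ± 0.300 CPM, and Gdf3, from 4 counts over the EL libraries to 136 over the PT libraries.

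Among 13 tested other antagonist genes 10 were lower and 3 higher (median -2.67). Nbl1, which encodes a secreted BMP antagonist, was at -3.52, Bmper at -5.60 and the secreted protease gene Htra1 at -2.67 on the log2 scale. The 3 that rose, named after their values were seen, were Nog, the noggin gene, from 0.439 ± 0.186 to 1.29 ± 0.248 CPM, Twsg1 by 0.48 and Crim1 by 0.56 on the log2 scale. Fstl3, a follistatin relative chosen after its values were seen, fell from 88.4 ± 16.0 to 34.1 ± 0.790 CPM.

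Receptor and Smad genes had medians nearer to 0. Of 13 tested receptor and co-receptor genes 9 were lower and 4 higher, with a median of -0.50. Bmpr1b, a type I BMP receptor gene, had a log2 fold change of -5.16 and Eng, a co-receptor gene known from endothelium, of -4.06. Acvr1 and Tgfbr3 were at -0.83 and -1.37. The 4 that were higher, named after their values were seen, were Acvr1b, the activin type I receptor gene, at 0.40, Acvr1c at 2.40 with 5 counts over the EL libraries, Acvr2b at 0.49 and Rgma at 0.67. Of 9 tested Smad and Smurf genes 1 was higher and 5 lower, with a range of -0.86 to 0.61. Smad3, which carries activin signals, rose from 77.4 ± 2.49 to 118 ± 4.27 CPM. Smad2 and Smad5 were at -0.19 and -0.17 and were not called with library totals, where their values were 0.06 and 0.08.

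Of 14 genes known as targets of these signals 9 were lower and 4 higher (median -0.67). Msx1, a homeobox gene, fell from 42.1 ± 4.63 to 0.506 ± 0.1001 CPM, Id4 had a log2 fold change of -5.45 and Runx2 of -1.55. Msx2, a paralog of Msx1, went the other way, at 2.79 on the log2 scale with 17 counts over the EL and 159 over the PT libraries. Hey1, at 0.60, and Pmepa1, at 0.11, were higher too; these 3 were named after their values were seen. Id1 and Id3, standard readouts of BMP signalling, fell by 0.86 and 0.48 on the log2 scale, while Id2 rose by 0.84. The inhibitory Smad gene Smad7 fell by 0.86, and Smad6, at -0.06, was not called (adjusted p = 0.417 by edgeR) but passed with library totals at 0.19.

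**Figure D4:**
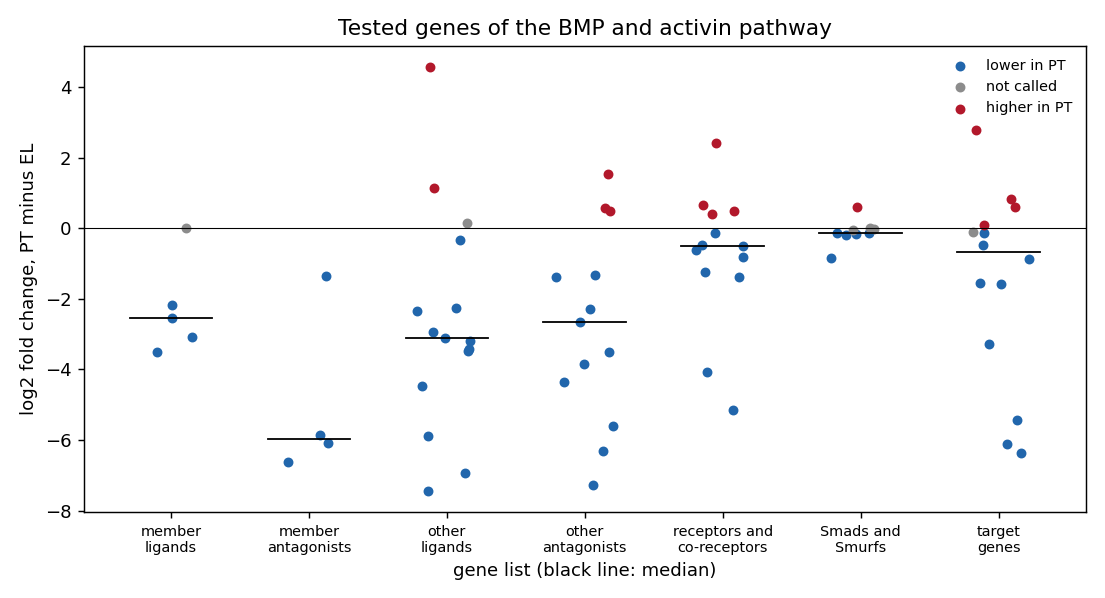
Log2 fold change (PT minus EL) of each tested gene in 7 lists, with 1 point per gene coloured by its call and a black line at the median of the list. Member antagonists have the lowest median (-5.97), other ligands and other antagonists have medians of -3.10 and -2.67, and the Smad and Smurf genes lie near 0 (median -0.13). The lowest single genes are among the other ligands (-7.45) and other antagonists (-7.28), below the lowest member antagonist (-6.61).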

How the data were processed

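Per the submitters' processing notes, the tools were STAR, featureCounts and DESeq2, with mm10 and hg19 as builds. Their versions, settings and strandedness were not given in the sources used here. As deposited, each value is an unnormalised count of reads on 1 RefSeq transcript. The comparison used rows present in all 6 tables and, per symbol, the transcript with the highest mean count. edgeR 4.0.16 in R 4.3.3 was run with filterByExpr, TMM factors and the quasi-likelihood test of PT against EL, adjusted over all 13844 tested genes by Benjamini-Hochberg at 0.05. The SE is the absolute log2 fold change divided by the square root of the F statistic. CPM values use TMM-scaled totals of the tested transcripts. The test was tried on simulated counts. Ratios used counts plus 0.5. Libraries of a group differed by more than sampling noise (chi-square of 2.90 to 12.4 per gene), so all were kept as separate samples. Alternatives were RLE factors, library totals, DESeq2 1.42.0, limma-voom (limma 3.58.1), other filters, summed transcripts, a 2-fold minimum, a replicate block and each library left out, and, added after seeing the data, the 5 complete libraries.

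Named genes beyond the 9 are, per pathway list, up to 4 with the smallest p-value; per marker list, up to 2 with the highest mean CPM, named where the text needs them; 1 nearest gene per member; and Id1, Id2, Id3, Smad6 and Smad7 by name. The lung and adipocyte markers are given whole. Other genes are marked as chosen after their values were seen. Some genes that the rule names are not reported here. Members and lists were chosen with earlier results of these data known. Of the 9 genes 5 (Bmp4, Bmp7, Inhba, Fst and Fstl1) overlap another RefSeq gene, whose reads cannot be told apart from theirs here. Positions and promoter sequences are from RefSeq (GRCm38.p6), and transcript lengths from GENCODE.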

Additional observations from a re-analysis of the deposited data

How the results depend on the processing

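The 8 genes that fell did so under all 16 alternatives, with ranges of -6.68 to -6.37 for Fstl1, -6.52 to -5.77 for Grem1, -5.98 to -5.60 for Fst, -3.54 to -3.26 for Bmp7, -3.23 to -2.84 for Bmp4, -2.75 to -2.31 for Inhba, -2.20 to -1.92 for Bmp2 and -1.36 to -1.09 for Bambi on the log2 scale. Not all of these vary the counts of the 9 genes: the 2-fold minimum changes only the test. Summed transcripts leave the counts of these genes as they are, since each has 1 transcript row. Inhbb stayed within -0.03 to 0.25. It was at -0.0076 with RLE factors, -0.0076 with DESeq2, -0.0033 with the filter on a mean count under 20 and -0.0313 in the 5 complete libraries, and leaving out 1 library at a time gave -0.0253 to 0.0301, none of them called. With library totals it passed (0.25; adjusted p = 1.35e-05), so that 1 of the 9 genes was called higher. With library totals 65.8% instead of 49.5% of all called genes were higher in PT, and Smad2, Smad5 and Smad6 were at 0.0576, 0.0801 and 0.1882. Against a 2-fold minimum 3401 genes were called, 1010 higher and 2391 lower, and 34 of the other pathway genes, 4 of them higher. Of the 6 count ratios, the change of Bmp2 to Grem1 ran from 3.60 to 4.48 and that of Inhba to Fst from 3.11 to 3.49 over 9 alternatives each. Summed transcripts and the replicate block leave these changes as they are. With the groups fully apart, leaving out 1 library cannot turn their direction, so that only their size is read. The replicate numbers share only a number: the correlation of deviations between libraries of the same number was at most 0.0222, and with the replicate block 8 members and 11203 genes were called. A sign-flip test over pairs cannot go below 0.25. Low counts limit Bmp4, with 29 counts over the PT libraries, and Grem1, with 62.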

Other observations

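Several genes, chosen after their values were seen, were low with Inhba in EL replicate 1. Fstl3 was at 69.9, 97.0 and 98.1 CPM in EL, and the cytokine gene Il11 at 37.2, 63.6 and 71.1. Ereg, the gene nearest to Inhba in pattern, was at 5.67, 9.62 and 11.1 CPM. In EL replicate 1, 72 of 11853 genes with a mean count of at least 100 were over 1.4-fold below both other EL libraries, against 14 and 10 genes for EL replicates 2 and 3. The same count within PT was 84, 55 and 25 for replicates 1 to 3. The mean is over all 6 libraries, so that genes with few PT counts enter, such as Grem1 (9, 21 and 32). The PT numbers are therefore not directly comparable with those of EL. The chi-square per gene was 12.4 and 9.76 between EL replicate 1 and EL replicates 2 and 3. It was 4.19 between EL replicates 2 and 3, and 2.90 to 3.63 within PT. Fst was at 46.8, 49.4 and 47.8 CPM in the EL libraries.

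Although the lung label stands on the EL samples, 2 lung markers were higher in PT. Sftpd, a surfactant protein gene, rose from 8.07 ± 0.849 CPM in EL to 72.1 ± 3.27 in PT, and Foxj1, a ciliated cell factor gene, from 7.24 ± 0.881 to 53.1 ± 3.03 (SD, n = 3 each), while Sftpa1, Scgb1a1 and Nkx2-1 had 0 counts in every library.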
